A study of Homo sapiens with 10 samples.

Results

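The BCL2 family sets the mitochondrial threshold for apoptosis, and 10 of its genes were followed here in 12Z cells, an established epithelial line from a human peritoneal endometriosis lesion. The members were taken by symbol: MCL1, BCL2L1, BCL2 and BCL2A1 (pro-survival), BAK1 (effector), and BID, BMF, PMAIP1, BBC3 and BCL2L11 (BH3-only). Each matched 1 of the 62750 gene IDs in the table of counts, and each passed the filter on low counts that left 15740 genes to test. The study asked how inhibitors of the kinase JNK change the response of these cells to the inflammatory cytokine IL1β.

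Cells of all groups were grown in 10% fetal bovine serum and starved overnight in phenol red-free medium with 2% charcoal-stripped serum. The vehicle group received DMSO and no IL1β. The IL1β group received DMSO for 30 min and then 10 ng/ml IL1β for 6 h. In the other groups the same IL1β treatment followed 30 min with an inhibitor, CDD-2728 at 1 µM, CDD-2728 at 10 µM or CDD-3013 at 1 µM. Both compounds are known here only by these code names, and no group received an inhibitor alone, so their effect without IL1β was not measured. Each of the 5 groups held 2 libraries of poly(A)-selected RNA. Nothing states that the 2 came from separate cultures, so p-values here reflect only how these samples of a single cell line varied, possibly for technical reasons.

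Pro-survival members hold the pore-forming effectors BAK1 and BAX in check at the outer mitochondrial membrane. BH3-only proteins, made or activated under stress, bind the pro-survival members or the effectors and so release the pore, after which cytochrome c leaves the mitochondrion and caspases are activated. JNK is known to phosphorylate the BH3-only proteins encoded by BCL2L11 and BMF, which are otherwise held on dynein light chains, and BCL2 is known in endometrial glands for a level that varies over the menstrual cycle. Many of these proteins are controlled by splicing, cleavage, phosphorylation or degradation, none of which a gene-level count of RNA reads shows.

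The promoters of 3 BH3-only genes are shown because, of the members searched, only they held a match to a binding motif. The motifs were those of factors tied to JNK or IL1β signalling. RNA of each of the 3 was higher with 10 µM CDD-2728 than under IL1β alone, as was that of PMAIP1, whose promoter held no match. A further promoter of BMF held none either. Against vehicle, IL1β raised BBC3 (log2 difference 0.93) and lowered BMF (-1.99), and BCL2L11 (-0.16) was not called changed, as defined below. Of the 3, none was called with 1 µM CDD-2728 and only BMF with CDD-3013. Any tie between a motif and these changes was not tested. The searched windows were the 250 bases before the RefSeq start sites (GRCh38.p14), of which 15 belonged to 9 of the 10 members. Both strands were searched for the AP-1 motif TGANTCA, the CRE motif TGACGTCA, the FOXO motif GTAAACA and the κB consensus. Capitals mark the match. For BMF and BBC3 bases closer to the start are left off, and the last 3 bases of the BMF match lie in an annotated first exon of the gene. For BCL2L11 the whole window is chr2:111120664-111120913 (plus strand), with a FOXO match that begins 223 bases before the start. For BMF the stretch is chr15:40108890-40109129 (minus strand), which ends with a κB match that begins 20 bases before the start. For BBC3 it is chr19:47232767-47232917 (minus strand), with an AP-1 match that begins 113 bases before the start.
BCL2L11: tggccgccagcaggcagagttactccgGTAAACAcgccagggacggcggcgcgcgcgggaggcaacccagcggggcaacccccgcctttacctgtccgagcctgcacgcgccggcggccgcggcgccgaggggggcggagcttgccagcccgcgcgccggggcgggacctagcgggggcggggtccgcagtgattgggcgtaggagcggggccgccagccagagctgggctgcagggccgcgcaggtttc
BMF: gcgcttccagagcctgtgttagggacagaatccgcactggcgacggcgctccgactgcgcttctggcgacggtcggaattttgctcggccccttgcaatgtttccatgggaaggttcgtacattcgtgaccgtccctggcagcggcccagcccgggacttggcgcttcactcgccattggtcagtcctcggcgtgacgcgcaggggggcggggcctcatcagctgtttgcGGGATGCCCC
BBC3: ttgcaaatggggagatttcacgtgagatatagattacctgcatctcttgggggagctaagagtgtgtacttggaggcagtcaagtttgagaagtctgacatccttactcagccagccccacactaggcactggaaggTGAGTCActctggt

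These were single matches, 1 each among the 15 windows for AP-1, FOXO and κB, and 0 for CRE. Among all 35116 RefSeq windows of this length, 6.57% held the AP-1 motif, 2.98% the FOXO motif, 9.96% the κB consensus and 1.65% the CRE motif. A match is a run of letters and was not shown to be a bound site.

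The libraries held 16312600 to 19479416 counts. CPM below are counts relative to the size of the library, scaled by factors that make the bulk of genes comparable (TMM factors, 0.9174 to 1.1139), and a gene is called changed when its adjusted p in edgeR's quasi-likelihood test is under 0.05. Of the epithelial markers, the keratin KRT8 had a mean of 6770 CPM and the adherens junction gene CDH1 9.73 CPM, while EPCAM (0.0729 CPM) and CLDN4 (0.583 CPM) were nearly absent. Of 8 stromal markers 0 had a mean under 1 CPM, from the collagen COL1A2 at 22.5 CPM to COL1A1 at 2800 CPM. Of 5 endothelial markers 2 had a mean under 1 CPM, and KDR was the highest at 28.2 CPM. Of 7 immune markers, 5 had a mean under 1 CPM, among them the leukocyte antigen PTPRC at 0.19 CPM. The other 2 were CD14, at 18.9 CPM, and ITGAM, which averaged 0.829 CPM in vehicle and 4.39 CPM under IL1β. ITGAM averaged 3.43 CPM with 1 µM CDD-2728, 1.14 CPM with 10 µM CDD-2728 and 3.7 CPM with CDD-3013. In the same 5 groups and order BCL2A1 averaged 0, 0.59, 0.881, 1.42 and 1.25 CPM. Any tie between ITGAM and the values of BCL2A1 was not tested. All 5 mesothelial markers were present, from UPK3B at 23.7 CPM to LRRN4 at 464 CPM. JUN, the gene of the JNK substrate c-Jun and a check on the treatment, averaged 139.3 CPM in vehicle, 316.4 under IL1β, 166.9 with 1 µM CDD-2728, 81.64 with 10 µM CDD-2728 and 128 with CDD-3013. Without TMM factors, on library totals alone, the median log2 change of all genes against vehicle shifted to -0.18 under IL1β and to -0.21, -0.12 and -0.29 in the arms with CDD-2728 (1, then 10 µM) and with CDD-3013, so changes against vehicle are relative to the bulk of genes.

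Compared per kilobase of exon, MCL1 RNA was the most abundant of the 10, at 63.8 CPM per kb on average over the 10 libraries. The effector BAK1 (21.8) and the BH3-only gene BID (19.4) followed, then BCL2L1 (14.1) and PMAIP1 (12.0). BBC3 (4.33), BCL2L11 (3.08) and BMF (2.19) were lower. BCL2A1 (0.76) and BCL2 (0.0962) were close to the limit of these libraries. BAK1 ranged over the libraries from 15.0 to 30.8 and BID from 8.65 to 31.7 CPM per kb, so these neighbours did not keep 1 order in all libraries, whereas the lowest value of MCL1, 47.1, lay above the highest of every other member. These ranks rest on the length of all exons together, 4446 bases for BID, 2212 for BAK1 and 4371 for MCL1. The longest transcripts have 2495, 2212 and 3932 bases, so scaling by them would raise BID relative to the other 2.

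**Figure D1:**
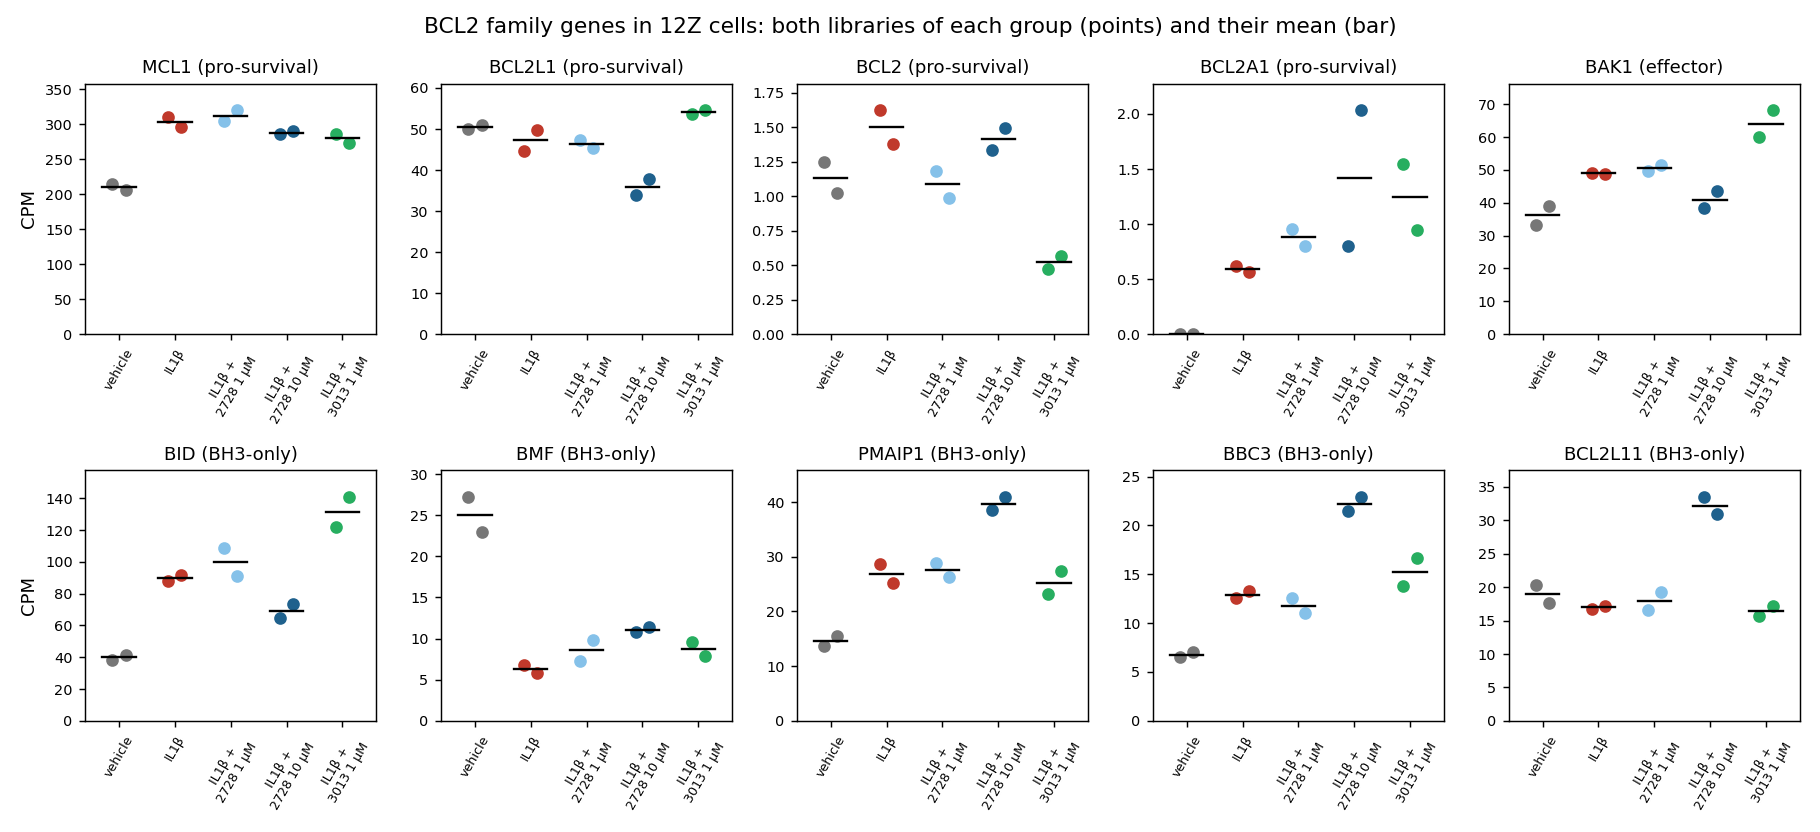
Level of each of the 10 members in CPM (vertical axis of each panel, from 0) in every library, 2 points per treatment group. BMF is highest in the 2 vehicle libraries (27.2 and 22.9 CPM), BCL2L11 in the 2 libraries with 10 µM CDD-2728 (33.5 and 30.9 CPM), and BID in the 2 with CDD-3013 (122 and 141 CPM).

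IL1β raised the RNA of the pro-survival gene MCL1, of the effector BAK1 and of the BH3-only genes BID, PMAIP1 and BBC3, and it lowered that of the BH3-only gene BMF 3.96-fold. Of the 10 members 6 were called higher and 1 lower, against 32.6% of all tested genes called in this comparison (17.6% higher and 15% lower), and the members' median log2 change was 0.49 against -0.01 for all tested genes. That median is the same with BCL2A1, which had no counts in vehicle, set at its bound. BCL2A1 could pass the filter only through groups with IL1β, so its call lends no support, and without it 5 of 9 were higher. The members were chosen with earlier results of these data known, and the difference from the background was not tested.

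Among the pro-survival genes, MCL1, whose protein is short-lived and renewed quickly (ENSG00000143384.14, chr1:150574551-150579738, minus strand, GRCh38), measured 214 and 206 CPM in vehicle and 311 and 297 CPM under IL1β. Both IL1β libraries lay above both vehicle libraries, a rise of 0.53 ± 0.06 (log2, SE, n = 2 per group, adjusted p = 6.01e-07), or 1.45-fold. BCL2A1, known as a target of NF-κB in blood cells (ENSG00000140379.9, chr15:79960889-79971446, minus strand), had 0 counts in both vehicle libraries and 11 and 9 counts, 0.616 and 0.565 CPM, under IL1β. With 3 counts over the vehicle group, or 0.0727 CPM, in place of 0, its level under IL1β was 8.13-fold higher. The edgeR test called it higher (adjusted p = 0.000797). This fold is only a rough bound, as the 95% Poisson interval for counting error alone reached 0.0894 CPM in vehicle. It also takes the IL1β level, 0.591 CPM over the group, as measured, although the interval there was 0.361 to 0.913 CPM. BCL2L1, which encodes BCL-XL and by splicing a shorter killer form that gene counts do not separate (ENSG00000171552.14, chr20:31664452-31723989, minus strand), measured 49.9 and 50.9 CPM in vehicle and 44.5 and 49.9 CPM under IL1β. It was not called, with a log2 difference of -0.1 and a 95% interval of -0.27 to 0.08. BCL2, the founding member (ENSG00000171791.14, chr18:63123346-63320128, minus strand), was near the detection limit at 1.25 and 1.02 CPM in vehicle and 1.62 and 1.38 CPM under IL1β. Its difference of 0.4 (-0.34 to 1.15) was not called and could not be resolved at this depth.

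The effector BAK1, which builds the pore in the outer membrane (ENSG00000030110.14, chr6:33572547-33580293, minus strand), measured 33.1 and 39.1 CPM in vehicle and 49.2 and 48.9 CPM under IL1β. The groups did not overlap, and the rise was 0.44 ± 0.09 (adjusted p = 0.00086).

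BID, the BH3-only protein that caspase-8 cleaves to link death receptors to mitochondria (ENSG00000015475.19, chr22:17734138-17774770, minus strand), measured 38.4 and 41.3 CPM in vehicle and 87.7 and 91.8 CPM under IL1β. It rose 2.25-fold (log2 1.17 ± 0.09, adjusted p = 1.05e-09), the largest rise among the members with counts in vehicle. PMAIP1, which encodes NOXA, a partner of MCL1 (ENSG00000141682.12, chr18:59899948-59904306, plus strand), measured 13.8 and 15.5 CPM in vehicle and 28.6 and 25.2 CPM under IL1β, a rise of 0.88 ± 0.11 (adjusted p = 1.45e-06). BBC3, which encodes PUMA, a binder of the pro-survival members (ENSG00000105327.18, chr19:47220822-47232766, minus strand), measured 6.55 and 7.0 CPM in vehicle and 12.6 and 13.2 CPM under IL1β, a rise of 0.93 ± 0.14 (adjusted p = 1.63e-05). In each of the 3 genes the lower IL1β library lay clearly above the higher vehicle library.

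BMF moved the other way. This BH3-only gene, whose protein is tethered to the myosin V motor (ENSG00000104081.14, chr15:40087890-40108892, minus strand), measured 27.2 and 22.9 CPM in vehicle and 6.83 and 5.78 CPM under IL1β. It fell 3.96-fold (log2 -1.99 ± 0.16, adjusted p = 3.44e-10), and its IL1β libraries were the lowest of all 10. BCL2L11, which encodes BIM (ENSG00000153094.24, chr2:111119378-111168447, plus strand), measured 20.3 and 17.6 CPM in vehicle and 16.8 and 17.1 CPM under IL1β. Its difference of -0.16 (-0.4 to 0.08) was not called, so the BH3-only group held 3 genes that rose, 1 that fell and 1 that was not called. On library totals, without TMM factors, BCL2L1 (-0.27, adjusted p = 0.013) and BCL2L11 (-0.33, adjusted p = 0.0269) were called lower as well.

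**Figure D2:**
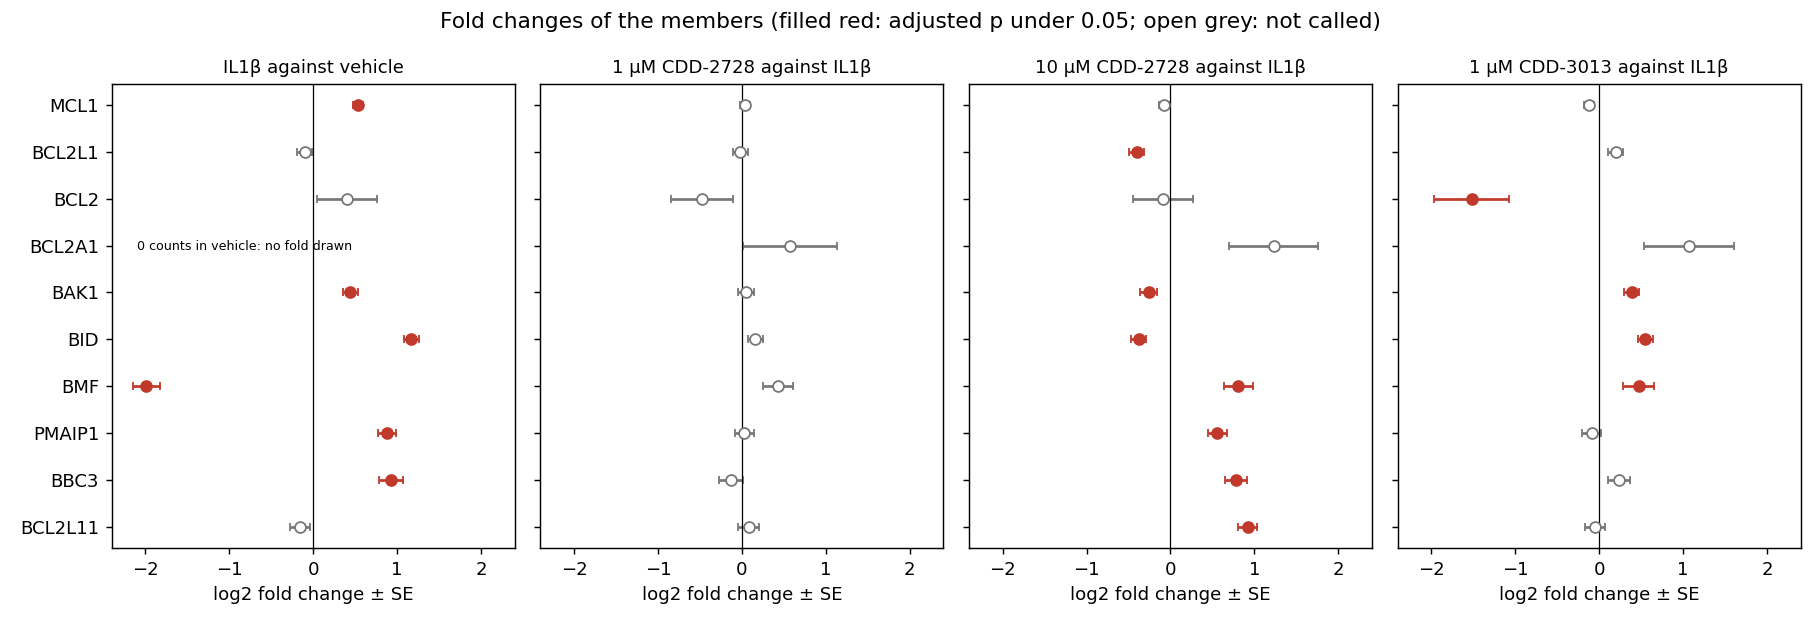
Log2 fold change of each member with its SE (horizontal axis) in 4 comparisons, IL1β against vehicle and each inhibitor arm against IL1β alone, with filled points for members with an adjusted p under 0.05. BMF sits at -1.99 under IL1β and on the positive side in each inhibitor arm, though it was not called with 1 µM CDD-2728. All 4 comparisons share the IL1β libraries, in which BMF was lowest, so these opposite signs are not independent of each other. BCL2L11 stands at 0.92 with 10 µM CDD-2728.

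With 1 µM CDD-2728 on top of IL1β, 0 of the 10 members were called in either direction by edgeR and 0 by DESeq2, where 4.59% of all tested genes were called. At an unadjusted p under 0.05, 1 member was higher and 0 were lower. That member was BMF, at 7.33 and 9.82 CPM against 6.83 and 5.78 CPM under IL1β alone (log2 0.43 ± 0.18, adjusted p = 0.18). JUN was lower in the same libraries by -0.92 ± 0.07 (adjusted p = 1.37e-08). The 95% interval of the difference reached -0.09 to 0.17 for MCL1, -0.19 to 0.26 for PMAIP1, -0.41 to 0.15 for BBC3 and -0.17 to 0.33 for BCL2L11. For the 2 lowest members it was wide, -1.24 to 0.31 for BCL2 and -0.59 to 1.73 for BCL2A1, so that changes of that size could not be detected there. For BID, at 109 and 91.3 CPM, the difference of 0.16 (-0.03 to 0.35) was called without replicate 2 of the 1 µM arm, at 0.29 (adjusted p = 0.05).

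At 10 µM CDD-2728 the members moved in both directions. The BH3-only genes BCL2L11, BBC3, BMF and PMAIP1 were higher than under IL1β alone, while the pro-survival gene BCL2L1, the effector BAK1 and the BH3-only gene BID were lower. Of the 10 members 4 were called higher and 3 lower, against 31.5% of all tested genes (15.6% higher and 15.9% lower). The members' median log2 difference was 0.24, and that of all tested genes was 0.01.

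BCL2L11 measured 33.5 and 30.9 CPM with 10 µM CDD-2728 against 16.8 and 17.1 CPM under IL1β alone. Every one of the other 8 libraries, vehicle included, lay at or below 20.3 CPM, and the rise was 0.92 ± 0.11 (adjusted p = 1.26e-06), or 1.9-fold. Exons of BCL2L11 overlap those of the long noncoding gene MIR4435-2HG on the opposite strand, and the strand setting of the counting is not given in the sources used here, so reads from the overlap cannot be told apart. MIR4435-2HG measured 27.1 and 25.2 CPM in these libraries against 55.8 and 50.9 CPM under IL1β alone, a log2 difference of -1.03 ± 0.1 (adjusted p = 2.32e-08). In this arm its direction was opposite to that of BCL2L11. MIR4435-2HG was also called lower with 1 µM CDD-2728 (-0.62) and with CDD-3013 (-0.8), where BCL2L11 was not called (0.08 and -0.05). How far the overlap affects the counts of either gene was not tested. The antisense genes at BMF and BCL2L1 had 0 and 1 reads over all libraries.

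BBC3 measured 21.5 and 22.9 CPM with 10 µM CDD-2728, against 12.6 and 13.2 CPM under IL1β alone (0.78 ± 0.13, adjusted p = 5.1e-05). PMAIP1 measured 38.5 and 40.9 CPM, against 28.6 and 25.2 CPM (0.56 ± 0.11, adjusted p = 0.000284). Both genes had already risen under IL1β, and their 2 libraries with 10 µM were the highest of all 10. BMF measured 10.8 and 11.4 CPM, against 6.83 and 5.78 CPM, a rise of 0.81 ± 0.17 (adjusted p = 0.00075). It remained under its vehicle level, by a log2 difference of -1.18 ± 0.14 (adjusted p = 4.75e-07).

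Among the lower members, BCL2L1 measured 33.8 and 37.9 CPM with 10 µM CDD-2728, against 44.5 and 49.9 CPM under IL1β alone (-0.4 ± 0.09, adjusted p = 0.00132). These were its 2 lowest libraries, and it was lower than in vehicle too (-0.49 ± 0.09, adjusted p = 9.18e-05). BID measured 65 and 73.3 CPM, against 87.7 and 91.8 CPM, a difference of -0.38 ± 0.09 (adjusted p = 0.00288). Without replicate 1 of the 10 µM arm the call of BID was lost (-0.29, adjusted p = 0.0746). BAK1 measured 38.3 and 43.5 CPM, against 49.2 and 48.9 CPM (-0.26 ± 0.1, adjusted p = 0.0381), and this call was lost on library totals, with the stricter filter, with DESeq2 and without replicate 1 or 2 of IL1β or replicate 1 of the 10 µM arm, with adjusted p of 0.0539 to 0.332. MCL1, at 286 and 290 CPM, was not called (-0.08, interval -0.21 to 0.06). BCL2A1 had 15 and 34 counts in the 2 libraries, 0.801 and 2.03 CPM, and its difference of 1.23 ± 0.53 was not called (adjusted p = 0.0726). Without replicate 1 of this arm it was called, at 1.77 (adjusted p = 0.0219), and also in the fit of only the 4 libraries compared (1.23, adjusted p = 0.0386).

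The 2 doses of CDD-2728 differed in 6 of the 10 members, against 27.1% of all tested genes called (13.3% higher and 13.8% lower at 10 µM), with a median of 0.37 for the members and 0.01 for all tested genes. PMAIP1 (0.53 ± 0.1, adjusted p = 0.000694), BBC3 (0.91 ± 0.13, adjusted p = 1.6e-05) and BCL2L11 (0.85 ± 0.11, adjusted p = 7.79e-06) were higher at 10 µM than at 1 µM. At 1 µM they had measured 28.8 and 26.2, 12.6 and 11, and 16.6 and 19.3 CPM, within or close to their range under IL1β alone. BCL2L1 (-0.37 ± 0.09, adjusted p = 0.00294), BID (-0.54 ± 0.09, adjusted p = 0.000148) and BAK1 (-0.31 ± 0.09, adjusted p = 0.0186) were lower at 10 µM. Without replicate 1 of the 10 µM arm the calls of BCL2L1 (-0.29, adjusted p = 0.07) and BAK1 (-0.22, adjusted p = 0.213) were lost, and that of BAK1 was lost also without replicate 2 of the 1 µM arm (-0.29, adjusted p = 0.0557). BMF, 0.37 ± 0.16 higher at 10 µM, missed the threshold (adjusted p = 0.0892), and was called on library totals (0.45, adjusted p = 0.0479) and without replicate 2 of the 1 µM arm (0.59, adjusted p = 0.0231).

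With 1 µM CDD-3013 on top of IL1β, BID and BAK1 rose further above their IL1β level, BMF rose and BCL2 fell. Of the 10 members 3 were called higher and 1 lower, against 36.4% of all tested genes (19% higher and 17.3% lower), so the share of members called was near the background. The members' median log2 difference was 0.22, against -0.01 for all tested genes.

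BID measured 122 and 141 CPM with CDD-3013, against 87.7 and 91.8 CPM under IL1β alone (0.55 ± 0.09, adjusted p = 6.36e-05). BAK1 measured 60.02 and 68.1 CPM, against 49.2 and 48.9 CPM (0.39 ± 0.09, adjusted p = 0.0023). For both genes these were the 2 highest libraries of all 10. When trends of the counts over transcript length and GC content were entered into the fit, BID kept its call (0.45, adjusted p = 0.000111) and BAK1 did not (0.16, adjusted p = 0.162). The GC content of the longest BAK1 transcript is 58.8% and that of BID 49.7%.

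BMF measured 9.57 and 7.91 CPM with CDD-3013, against 6.83 and 5.78 CPM under IL1β alone (0.47 ± 0.18, adjusted p = 0.0396). The call was lost on library totals (0.39, adjusted p = 0.0947), with DESeq2 (0.48, adjusted p = 0.0727) and without replicate 1 or 2 of IL1β (0.61 and 0.36) or replicate 1 of CDD-3013 (0.33), where the adjusted p was 0.0553, 0.229 and 0.267. BCL2 had 8 and 9 counts with CDD-3013, 0.475 and 0.569 CPM, its lowest values in any library. Against 1.62 and 1.38 CPM under IL1β alone it fell by 1.52 on the log2 scale (-1.52 ± 0.45, adjusted p = 0.00727). Without replicate 1 of IL1β or replicate 1 of CDD-3013 the difference was -1.38 and the call was lost (adjusted p = 0.0642 and 0.0558), and BCL2 was too low to be tested with the stricter filter.

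BCL2L1, at 53.5 and 54.5 CPM, was not called higher (0.2 ± 0.09, adjusted p = 0.0798), and neither was BCL2A1, with 26 and 15 counts (1.07 ± 0.54, adjusted p = 0.119). The interval of the difference from IL1β alone was -0.25 to 0.02 for MCL1, -0.32 to 0.13 for PMAIP1, -0.04 to 0.51 for BBC3 and -0.29 to 0.2 for BCL2L11. MCL1 was called lower on library totals, at -0.2 (adjusted p = 0.0233).

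The 2 compounds shared 1 dose, 1 µM, and were compared there directly, as 1 pair. BID was 0.39 ± 0.09 higher with CDD-3013 than with CDD-2728 (122 and 141 against 109 and 91.3 CPM, adjusted p = 0.00472), and BAK1 0.34 ± 0.09 higher (60.02 and 68.1 against 49.7 and 51.5 CPM, adjusted p = 0.0138). These were 2 of the 10 members, with 0 lower, against 17.9% of all tested genes called (9.85% higher and 8.01% lower), so the members were called about as often as all genes, with a median of 0.13 against 0. Both calls were lost when 1 library was left out. Without replicate 2 of the CDD-2728 arm or replicate 2 of CDD-3013, BID (0.26 and 0.29, adjusted p = 0.103 and 0.0879) and BAK1 (0.36 and 0.25, adjusted p = 0.0618 and 0.172) were lost, and with length and GC trends BAK1 was lost (0.13, adjusted p = 0.411) while BID was kept (0.31, adjusted p = 0.0267). With those trends in the fit, 557 of all tested genes were called in place of 2811.

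For the members not called between the compounds, the interval of the log2 difference was -0.31 to 0.38 for BMF, -0.37 to 0.12 for BCL2L11, -0.35 to 0.1 for PMAIP1 and -0.29 to -0.02 for MCL1 (adjusted p = 0.0948). MCL1 was called on library totals, at -0.22 (adjusted p = 0.0215). For BBC3 it was 0.09 to 0.64 (adjusted p = 0.0589), and BBC3 was called higher with the stricter filter (0.36, adjusted p = 0.0477), without replicate 1 of the CDD-2728 arm (0.47, adjusted p = 0.0415) and without replicate 1 of CDD-3013 (0.5, adjusted p = 0.0316). For BCL2L1 it was 0.04 to 0.4 (adjusted p = 0.0797), for BCL2A1 -0.53 to 1.53 and for BCL2 -2.01 to -0.1 (adjusted p = 0.109). Because 10 µM was used for CDD-2728 alone, its values at that dose stand beside those of 1 µM CDD-3013 without a test. BID differed from IL1β alone by -0.38 ± 0.09 with 10 µM CDD-2728 and by 0.55 ± 0.09 with 1 µM CDD-3013, BAK1 by -0.26 ± 0.1 and 0.39 ± 0.09, and BCL2L11 by 0.92 ± 0.11 and -0.05 ± 0.12.

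Against vehicle, MCL1, BID, PMAIP1, BBC3 and BCL2A1 were higher and BMF was lower in each of the 3 inhibitor arms. These comparisons share the vehicle libraries. BCL2A1 lends no support to the counts here either, and without it 5 of 9 members were higher in each arm. With it, at 1 µM CDD-2728, 6 members were higher and 1 lower (34.8% of all tested genes called, 18.3% higher and 16.6% lower). With 10 µM 6 were higher and 2 lower (34.7%, 18.2% and 16.4%), and with CDD-3013 6 higher and 2 lower (49.4%, 26% and 23.4%). MCL1 was above vehicle in each arm, by 0.57 ± 0.06, 0.46 ± 0.06 and 0.42 ± 0.06, and BID by 1.33 ± 0.09, 0.79 ± 0.09 and 1.72 ± 0.09 in the same order. BMF stayed below vehicle in each arm, by a log2 difference of -1.55 ± 0.15, -1.18 ± 0.14 and -1.52 ± 0.15. BBC3 reached 1.71 ± 0.14 and PMAIP1 1.44 ± 0.11 above vehicle with 10 µM CDD-2728, where BCL2L11 was also above vehicle (0.77 ± 0.11, adjusted p = 6.26e-06). BAK1 was above vehicle with 1 µM CDD-2728 (0.49 ± 0.09) and CDD-3013 (0.83 ± 0.09) and was not called with 10 µM CDD-2728 (0.18 ± 0.1, adjusted p = 0.159). By the same rough bound BCL2A1, with 17 and 13 counts at 1 µM CDD-2728, was 12.1-fold above vehicle there, 19-fold with 10 µM and 17.3-fold with CDD-3013. Without replicate 2 of the 10 µM arm the bound was 11-fold for that arm. BCL2 was called below vehicle with CDD-3013 (-1.12 ± 0.45, adjusted p = 0.0364), a call lost without any 1 of the 4 libraries compared (-0.95 to -1.23, adjusted p = 0.0542 to 0.184) and with DESeq2 (adjusted p = 0.15).

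Summed by role, pro-survival RNA (MCL1, BCL2L1, BCL2 and BCL2A1) amounted to 64.2 and 62.5 CPM per kb in vehicle and 85.3 and 83.6 under IL1β. The sums were 85.1 and 87.7 with 1 µM CDD-2728, 76.5 and 79.9 with 10 µM CDD-2728, and 83.2 and 80.02 with CDD-3013. MCL1 alone made up 75.3% to 85.6% of this sum. BH3-only RNA (BID, BMF, PMAIP1, BBC3 and BCL2L11) amounted to 24.9 and 25.3 CPM per kb in vehicle, 40.3 and 39.7 under IL1β, 45.2 and 40.4 with 1 µM CDD-2728, 45.6 and 48.7 with 10 µM, and 46.3 and 53.2 with CDD-3013. The ratio of the sums was 2.58 and 2.47 in vehicle, 2.12 and 2.1 under IL1β, 1.88 and 2.17 with 1 µM CDD-2728, 1.68 and 1.64 with 10 µM CDD-2728 and 1.8 and 1.5 with CDD-3013. The vehicle libraries had the highest ratios, the libraries with 10 µM CDD-2728 and with CDD-3013 lay below both IL1β libraries, and those with 1 µM CDD-2728 overlapped the IL1β libraries. These sums hold only 9 of the members. With the other tested genes of both roles added, a choice made after seeing the data (BCL2L2 as pro-survival, BAD and BIK as BH3-only), the ratio was 1.31 and 1.22 in vehicle and 1.26 and 1.21 under IL1β, so the 2 groups overlapped and were not separated as they were over the members alone. BAD alone, at 26.7 and 29.1 CPM per kb in vehicle and 26.5 and 27.2 under IL1β, lay above BID in both groups. The wider ratio was 1.05 and 1.21 with 1 µM CDD-2728, 0.996 and 0.942 with 10 µM CDD-2728 and 0.889 and 0.758 with CDD-3013, so the last 2 groups lay below IL1β by either sum. With CDD-3013 the BH3-only genes called higher among the members were BID and BMF, and with 10 µM CDD-2728 BID was lower and BCL2L11, BBC3, BMF and PMAIP1 were higher. The sums are RNA levels over exon length, depend on that choice of length, are described without a test, and are not amounts of protein.

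**Figure D3:**
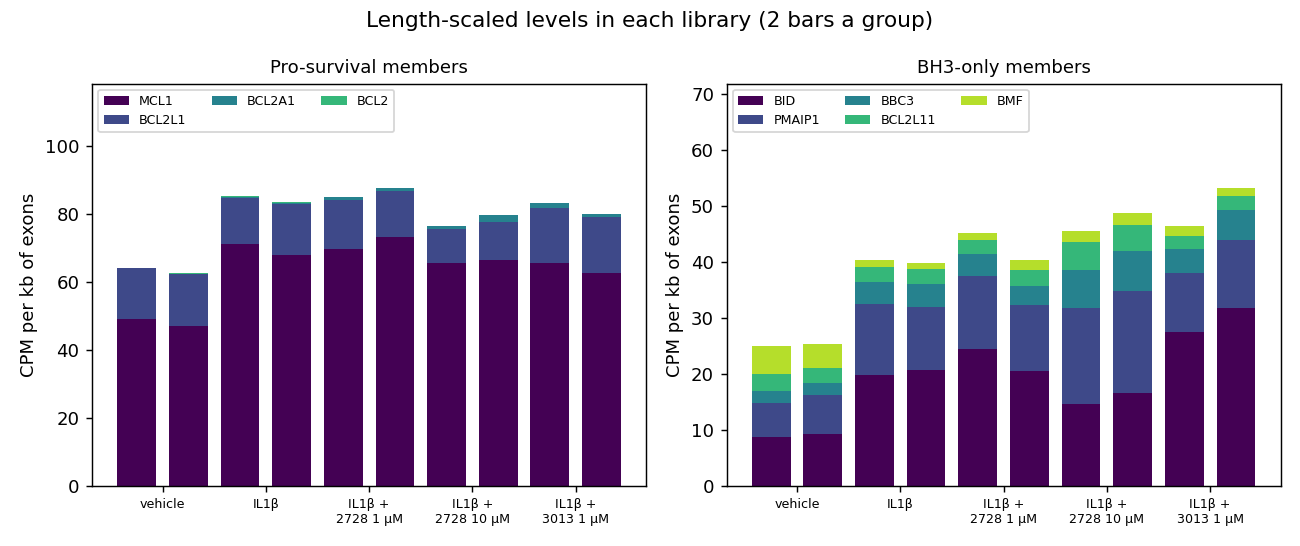
Stacked RNA levels per library in CPM per kb of exon (vertical axis, from 0), with the pro-survival members in 1 panel and the BH3-only members in the other. MCL1 makes up 75.3% to 85.6% of the pro-survival bars, and the BH3-only bars run from 24.9 in vehicle to 53.2 with CDD-3013.

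The pathway genes around the members are read against the same shares of all tested genes, 32.6% called under IL1β, 4.59% with 1 µM CDD-2728, 31.5% with 10 µM CDD-2728 and 36.4% with CDD-3013, and against medians of all genes from -0.01 to 0.01. Of 13 further BCL2 family genes 9 could be tested, and 3 rose and 0 fell under IL1β (median 0.03), a share close to the 32.6% of all genes. BIK, a BH3-only gene, rose from 0.886 to 5.49 CPM on average (2.6 ± 0.28, adjusted p = 1.66e-08), and the mitophagy receptors BNIP3 (0.42 ± 0.1) and BNIP3L (0.26 ± 0.07) rose less. The effector BAX was not called, at 59.99 CPM in vehicle and 55.5 CPM under IL1β (-0.11, interval -0.29 to 0.07). With 10 µM CDD-2728, 0 rose and 2 fell (31.5% of all genes were called), the pro-survival gene BCL2L2 (-0.86 ± 0.14, adjusted p = 8.18e-05) and the BAX-like gene BOK (-0.6 ± 0.08, adjusted p = 2.84e-06). BOK also fell with 1 µM (-0.36 ± 0.08, adjusted p = 0.00623), the 1 gene of the list called there, but not without replicate 2 of IL1β (-0.27, adjusted p = 0.199). With CDD-3013, 4 rose and 0 fell (median 0.12). They were the BH3-only genes BAD (0.77 ± 0.09) and BIK (0.71 ± 0.18), BCL2L12 (0.49 ± 0.09) and BAX (0.48 ± 0.09), of which BAX (0.16, adjusted p = 0.123) and BCL2L12 (0.23, adjusted p = 0.058) were lost once length and GC trends were in the fit.

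Of 14 genes of the apoptosome, the caspases and their inhibitors, 5 rose and 2 fell under IL1β (median 0.19), where 32.6% of all genes were called. The inhibitor of apoptosis BIRC3 rose from 22.3 to 167 CPM (2.9 ± 0.07, adjusted p = 2.05e-19) and its relative BIRC2 by 0.76 ± 0.08. The apoptosome parts CYCS, which encodes cytochrome c (0.5 ± 0.07), and APAF1, its scaffold (0.54 ± 0.09), also rose. CASP6, an executioner caspase (-0.69 ± 0.12), and CASP9, the initiator of the apoptosome (-0.52 ± 0.12), fell. With 10 µM CDD-2728, 3 rose and 2 fell (median 0.01), near the 31.5% of all genes, and without replicate 2 of IL1β 3 of the 5 calls were left, as CASP6 (0.41, adjusted p = 0.0664) and CASP9 (0.35, adjusted p = 0.133) were lost. BIRC3 rose further (0.76 ± 0.06, adjusted p = 4.25e-09), and APAF1 (-0.67 ± 0.09) and CYCS (-0.38 ± 0.07) fell. With 1 µM, 1 rose and 0 fell, and that gene was BIRC3 (0.47 ± 0.06). With CDD-3013, 2 rose and 3 fell (median -0.03), near the 36.4% of all genes, with APAF1 (-0.69 ± 0.09) and XIAP, a direct caspase inhibitor (-0.58 ± 0.1), among the lower ones. XIAP was lost with length and GC trends (-0.2, adjusted p = 0.0825), and APAF1 was kept (-0.41, adjusted p = 0.000341).

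Of 11 genes in the death receptor arm that leads to BID, 6 rose and 0 fell under IL1β (median 0.26), where 17.6% of all genes rose and 32.6% were called. CFLAR, which blocks caspase-8 at the receptor, rose from 55.5 to 167 CPM (1.59 ± 0.07, adjusted p = 4.14e-15). The receptors FAS (1.26 ± 0.15) and TNFRSF10B (0.92 ± 0.07) and the initiator CASP10 (1.2 ± 0.1) rose with it. With 10 µM CDD-2728, 5 rose and 0 fell (median 0.17), led by TNFSF10, the ligand TRAIL, from 8.07 to 22.8 CPM (1.5 ± 0.15, adjusted p = 3.74e-08), and by FAS (0.79 ± 0.13), where 31.5% of all genes were called. Without replicate 2 of IL1β 3 of these 5 calls were left, as RIPK1 (0.22, adjusted p = 0.15) and CASP8 (0.27, adjusted p = 0.15) were lost. With 1 µM, 2 rose and 1 fell, and TNFSF10 was again first (1.19 ± 0.15, adjusted p = 1.72e-05). It was the 1 call of the 3 left without replicate 1 of IL1β, where CASP10 (0.36, adjusted p = 0.189) and TNFRSF10A (-0.52, adjusted p = 0.301) were lost. With CDD-3013, 5 rose and 2 fell (median 0.3), against 36.4% of all genes called, with TNFSF10 at 1.38 ± 0.15 and CASP10 at 0.49 ± 0.09 higher. CFLAR was lower there (-0.34 ± 0.06), but stood at 0.07 (adjusted p = 0.431) with length and GC trends in the fit. The higher calls of FADD (adjusted p = 0.0505) and TNFRSF1A (adjusted p = 0.151) were lost with these trends too. Of the 7 calls with CDD-3013, 4 were kept under every alternative.

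**Figure D4:**
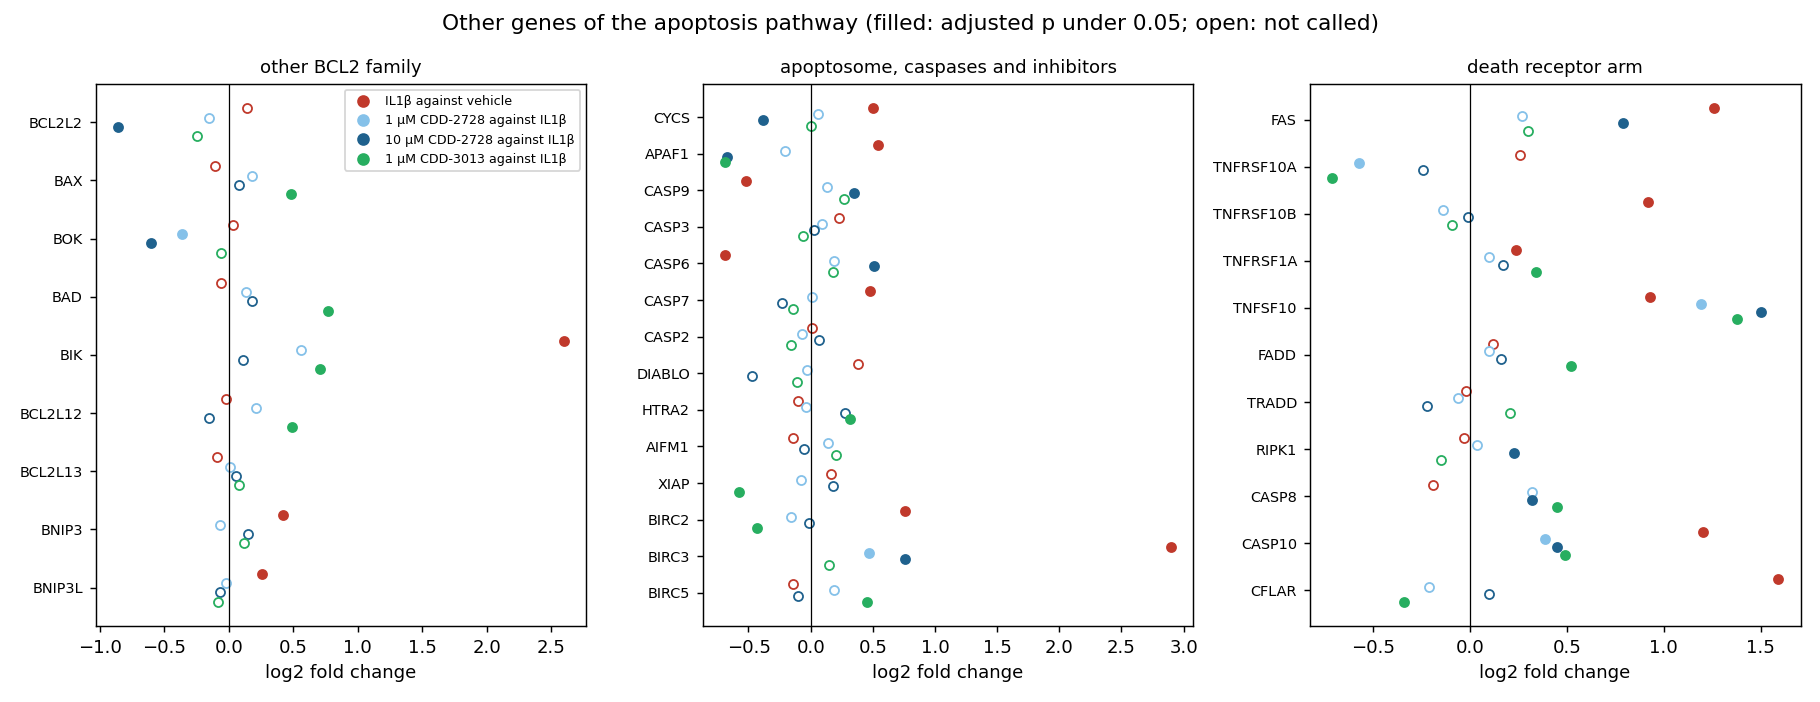
Log2 fold changes (horizontal axis) of the other BCL2 family genes, the apoptosome, caspase and inhibitor genes, and the death receptor arm in 4 comparisons, with filled points for an adjusted p under 0.05. BIRC3 (2.9) and BIK (2.6) lie farthest to the right under IL1β, and TNFSF10 is on the right in every inhibitor arm (1.19, 1.5 and 1.38). All 4 comparisons share the IL1β libraries.

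Of 14 partners and regulators of the family, 7 rose and 1 fell under IL1β (median 0.1, 32.6% of all genes called), and 0 were called with 1 µM CDD-2728 by edgeR (4.59%). With 10 µM 3 rose and 1 fell (31.5%), and with CDD-3013 6 rose and 3 fell (36.4%). Under every alternative scaling, filter, fit and left-out library, 2 of the 8 calls under IL1β were kept, and 2 of the 9 with CDD-3013. FOXO3, a transcription factor known to drive BCL2L11, rose under IL1β (0.71 ± 0.08, adjusted p = 2.96e-07), as did USP9X, the deubiquitinase that stabilises MCL1 protein (0.51 ± 0.07). With 10 µM CDD-2728 the stress factor DDIT3 rose from 13.1 to 24.6 CPM (0.91 ± 0.12, adjusted p = 5.69e-06). With CDD-3013 USP9X fell (-0.51 ± 0.07, adjusted p = 1.23e-05), a call lost with length and GC trends (-0.09, adjusted p = 0.254), and DDIT3 rose by 0.62 ± 0.13 (adjusted p = 0.000558).

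The genes whose pattern over the 10 libraries was most like that of BMF were SMAD6, an inhibitor of BMP signalling (Pearson r of log2 CPM 0.984), SEMA4F, a semaphorin (0.983), and PCDH10, a protocadherin (0.981), among 10270 genes with a mean of at least 5 CPM. SMAD6 measured 46.8 and 44.5 CPM in vehicle, 12.6 and 11.6 under IL1β and 19.8 and 18.9 with 10 µM CDD-2728. For BCL2A1 they were the glucose transporter SLC2A1 (0.989), the transcription factor ELK1 (0.987) and the ferritin heavy chain FTH1 (0.981), among 10271 genes. These values are descriptions, over libraries of which the 2 vehicle ones stand far from the rest.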

How the data were processed

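Poly(A)-selected RNA of 10 samples was sequenced. The authors deposited 1 table of raw gene counts, whole numbers per gene ID and library. Per the submitters' processing notes fastp, STAR and featureCounts were run against hg38; no versions, annotation or strand setting are given in the sources used here. All 10 columns were used and no pair was identical.

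Symbols matched 61918 IDs with and 754 without the version, 78 did not match. Coordinates and exon lengths are from GENCODE 29 (GRCh38), promoters from RefSeq (GRCh38.p14). In R 4.3.3, edgeR 4.0.16 fitted all 10 libraries by group (filterByExpr with a minimum count of 10, TMM factors, robust quasi-likelihood test, 5 residual degrees of freedom, Wald SEs with 95% t intervals), with Benjamini-Hochberg adjustment over 15740 genes. The 9 comparisons were IL1β and each arm against vehicle, each arm against IL1β, and the arms at 10 against 1 µM and at matched dose. On simulated counts for IL1β against vehicle (15238 genes), 94% of 100 genes changed by 1 on the log2 scale and 73% of 100 changed by 0.5 were recovered, with 7 false calls. The simulated spread was the same for every gene (coefficient of variation 0.06) and only 200 genes were changed, where 32.6% were called in the data. These rates thus need not hold for the real comparison. Alternatives were other scalings and filters, DESeq2 1.42.0, 4-library fits, a replicate block, length and GC offsets (loess, span 0.3) and leaving out each library.

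Members and gene lists were chosen with earlier results of these data known. All members are named. Of each list, counts are given and up to 4 genes with the smallest adjusted p per comparison may be named, with JUN and CXCL8 as treatment checks. CASP6, CASP9 and BAX under IL1β and MIR4435-2HG were added after their values were seen. CXCL8 averaged 1.93 CPM in vehicle and 960 CPM under IL1β.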

Additional observations from a re-analysis of the deposited data

How the results depend on the processing

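Of 90 member values, 49 were called, and 39 of these kept direction and call under every alternative in which they were tested. Against vehicle the only call lost was that of BCL2 with CDD-3013, and all other losses fell in comparisons among the groups with IL1β. With CDD-3013 against IL1β only BID kept its call throughout, and against 1 µM CDD-2728 neither BID nor BAK1 did. Depth limits BCL2 and BCL2A1, whose libraries held at most 34 counts of BCL2A1. No pairing by the replicate numbers shared by the groups was seen (correlation of same-numbered deviations -0.114 to 0.055 over 10 pairs of groups, 0 over 0.1). With 2 libraries per group this check over all genes could miss a weak shared effect, so it does not exclude pairing. With the number as a replicate block, each count of members called was the same as without it, for example 6 higher and 1 lower under IL1β. Where a value differed below, the cause was not tested, apart from fewer samples or genes.

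Counts of members called that differed by over 1.5 times were as follows. On library totals, where 6353 of all genes in place of 5129 were called under IL1β and 6719 in place of 5478 with 1 µM CDD-2728 against vehicle, 3 members were lower under IL1β (1 with TMM), 2 with 1 µM CDD-2728 against vehicle (1), 2 with CDD-3013 against IL1β (1) and 1 with CDD-3013 against 1 µM CDD-2728 (0). With CDD-3013 against IL1β, 0 were lower with the stricter filter and 0 to 1 when 1 library was left out. With CDD-3013 against vehicle, 1 was lower, in place of 2, with no filter, the stricter filter, DESeq2, length and GC offsets, and each left-out library. With CDD-3013 against 1 µM CDD-2728, 1 was higher with length and GC offsets and 0 to 2 with a library left out, in place of 2. Leaving out a library gave 1 to 3 lower members with 10 µM CDD-2728 against IL1β or against 1 µM (3 with all libraries), and 0 to 1 higher with 1 µM CDD-2728 against IL1β (0).

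The member values whose direction turned were not called. With length and GC offsets these were BBC3 (-0.06) and BCL2L11 (0.09) for CDD-3013 against IL1β, BMF for CDD-3013 against 1 µM CDD-2728 (-0.01) and BCL2L1 for CDD-3013 against vehicle (-0.05). Among the pathway genes called in the comparisons above, 1 value turned, that of CFLAR for CDD-3013 against IL1β (0.07). On library totals, BCL2L1 turned for CDD-3013 against vehicle (-0.16) and BMF for CDD-3013 against 1 µM CDD-2728 (-0.03). With 1 library left out in turn, the ranges that crossed 0 were -0.2 to 0.03 (BCL2, 10 µM CDD-2728 against IL1β), -0.2 to 0.1 (BCL2) and -0.18 to 0.04 (BCL2L11) for 1 µM CDD-2728 against vehicle, and -0.14 to 1.2 (BCL2A1, between the doses). For 1 µM CDD-2728 against IL1β they were -0.1 to 0.06 (BCL2L1), -0.02 to 0.19 (BCL2L11) and -0.05 to 0.13 (PMAIP1). For CDD-3013 they were -0.1 to 0.03 (BCL2L11) and -0.2 to 0.03 (PMAIP1) against IL1β and -0.16 to 0.25 (BMF) against 1 µM CDD-2728.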
